A study of Mus musculus with 6 samples.

Results

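Genes induced by interferon were examined across the cells of brain microvessels from mice with and without a mosaic endothelial deletion of Cldn5, the gene of the tight-junction protein claudin-5. The set was a list of 33 symbols, given by gene name. Of these, 32 had a row among the 32286 features of the count matrices, and Mx1 was not analysed here. Vessel fragments were pulled from digested brain tissue with beads carrying an antibody against PECAM1 and profiled with 10x Genomics 3′ chemistry v3.1, so each value rests on unique molecular identifiers (UMIs), which count RNA molecules. The 3 control libraries came from C57Bl6 mice with the genotype Cldn5 fl/fl, R26 YFP/YFP. The 3 Cldn5 iECKO libraries carried the same alleles plus Cdh5-creERT2, a recombinase driven by the promoter of an endothelial cadherin and active only after tamoxifen. Control and iECKO mice alike received 100 µl of tamoxifen at 20 mg/ml by gavage on 3 days at about 3 months of age. Whether each library comes from 1 animal is not given, so every p-value refers to these libraries. Each fit also borrows spread across genes, so a p-value does not measure 1 gene's spread between libraries alone. The YFP reporter feature had 0 UMIs in all 6 libraries and could not mark recombined cells.

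Type I interferons bind a receptor made of Ifnar1 and Ifnar2, and the kinases Jak1 and Tyk2 then activate transcription factors by phosphorylation. A complex that includes Stat2 and Irf9 binds the interferon-stimulated response element (ISRE) in the promoters of antiviral genes, among them Irf7, which amplifies the response. Brain endothelial cells carry this pathway, and low tonic signalling keeps many of its targets expressed in the absence of infection.

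The promoters of 6 members the results return to are shown because they carry the element that defines the class. The letters searched were those of the ISRE core, which is GAAA, any 2 bases and GAAA again, on both strands. In RefSeq promoters of GRCm38.p6, which run from 250 bases before to 50 bases after the start of a gene, 13 of the 24 members with an entry held at least 1 match (54.2%), against 1079 of 27025 genes (3.99%). The letters TTCNNNGAA of the gamma-activated site, searched the same way, occurred in 5 of 24 members (20.8%) and in 9.55% of all genes. A match describes letters in a window and shows no binding. The stretches run 5′ to 3′ from 250 to 31 bases before the start site, and capitals mark the ISRE core, which reads as its reverse complement where the match is on the opposite strand.
Ifit1, chr19:34640639-34640858, + strand: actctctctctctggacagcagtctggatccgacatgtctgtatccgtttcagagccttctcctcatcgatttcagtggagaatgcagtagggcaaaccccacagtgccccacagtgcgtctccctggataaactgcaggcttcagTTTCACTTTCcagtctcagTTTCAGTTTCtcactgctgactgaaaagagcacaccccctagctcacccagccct
Ifit3, chr19:34583279-34583498, + strand: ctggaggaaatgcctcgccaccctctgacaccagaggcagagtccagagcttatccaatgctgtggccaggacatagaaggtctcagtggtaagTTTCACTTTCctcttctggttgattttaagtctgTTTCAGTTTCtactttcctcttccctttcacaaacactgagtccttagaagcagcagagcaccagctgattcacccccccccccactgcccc
Ifit3b, chr19:34607707-34607926, + strand: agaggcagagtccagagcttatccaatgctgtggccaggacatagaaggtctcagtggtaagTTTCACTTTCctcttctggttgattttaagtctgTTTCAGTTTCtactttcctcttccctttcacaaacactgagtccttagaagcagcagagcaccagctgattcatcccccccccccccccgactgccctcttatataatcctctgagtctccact
Rsad2, chr12:26456483-26456702, - strand: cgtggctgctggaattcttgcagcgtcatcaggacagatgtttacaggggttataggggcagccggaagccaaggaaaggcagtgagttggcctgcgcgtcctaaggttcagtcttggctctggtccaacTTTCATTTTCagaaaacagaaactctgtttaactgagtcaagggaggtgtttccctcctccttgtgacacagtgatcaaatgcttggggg
Isg15, chr4:156200849-156201068, - strand: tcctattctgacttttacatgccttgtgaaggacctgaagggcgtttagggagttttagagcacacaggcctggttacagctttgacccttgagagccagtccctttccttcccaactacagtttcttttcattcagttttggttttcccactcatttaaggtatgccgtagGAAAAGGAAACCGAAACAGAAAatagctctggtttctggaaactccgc
Gbp2, chr3:142620413-142620632, + strand: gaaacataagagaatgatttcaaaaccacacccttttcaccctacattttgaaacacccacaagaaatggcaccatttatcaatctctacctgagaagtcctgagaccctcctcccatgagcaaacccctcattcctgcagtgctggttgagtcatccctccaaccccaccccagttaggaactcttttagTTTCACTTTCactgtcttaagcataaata
In Ifit1 the matches began 104 and 85 bases before the start. The single matches of Rsad2 and Gbp2 began 120 and 59 bases before it. Isg15 held 3 overlapping copies that began 78, 72 and 66 bases before it. Ifit3 and Ifit3b, which lie beside Ifit1 and Ifit2 on chromosome 19, share an identical run of 169 bases in these stretches. Their transcripts are near-identical too, so reads may have been divided between them and their separate values are uncertain. Irf7, Irf9, Oasl2, Cmpk2, Samhd1 and Lgals3bp were among the 11 members whose entry held no match.

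Cells were clustered and named without the members, so that their levels did not decide the classes. A total of 21913 endothelial cells (1878 to 4814 per library) were obtained, with 651 smooth muscle cells, 371 pericytes and 639 microglia. Barcodes with UMIs of many markers of an unrelated class had been removed as mixed. This took 436 of 807 barcodes of the pericyte cluster (28.9% to 69.2% per library), 29 of 680 of smooth muscle and 17 of 656 of microglia. Of endothelial barcodes it took 7.90% in iECKO library 1 and 0.373% to 1.77% in the others, and its part in the results was not tested. Their median depths per library were 3652 to 5733 UMIs for endothelial cells, 5381 to 8763.5 for smooth muscle cells, 2063 to 3014 for pericytes and 2743.5 to 5587 for microglia. The libraries held 15727366 to 49350802 UMIs over 2714 to 7420 barcodes, and any 2 of them shared 0 to 16 barcodes. Endothelial cells fell into arterial (165 to 538 cells per library), capillary (1447 to 3790), venous (161 to 310) and fenestrated (53 to 265) subclusters. Each zone name rests on its markers, such as Gkn3 and Bmx, Car4 and Cxcl12, Ackr1 and Lrg1, and Plvap and Plpp3. A capillary subcluster of 3430 cells, 1573 of them from control library 2, was led by Ttr, a choroid marker, Hist1h1e and Gm42418. It was kept in the capillary sums, and its part in the results was not tested. A capillary subcluster led by Apln held 2226 cells of iECKO library 1 but 346 and 103 of the other iECKO libraries and 10 to 21 of the controls. Other capillary subclusters were uneven too. That led by Cxcl12 held 662 cells of control library 3 and 926 of iECKO library 3 but 7 to 55 of the others. That led by Hspb1 held 1395 cells of control library 1 and 91 to 721 of the others. Their part in the results was not tested. Endothelial cells devoted 0.201% to 0.315% of their UMIs to the members (24678 to 76575 UMIs per library).

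The members were lower in smooth muscle cells, pericytes and microglia than in endothelial cells. In smooth muscle cells all 32 were lower than in endothelial cells of the same libraries by edgeR's quasi-likelihood test with Benjamini-Hochberg adjustment, where 34.7% of all genes were lower. In pericytes 32 of 32 were lower, against 25.7% of all genes. In microglia 29 were lower, against 35.4%, and 1 was higher, against 26.9%. The median log2 difference from endothelial cells was -3.86 in smooth muscle, -2.53 in pericytes and -2.31 in microglia, beside medians of -0.12, -0.14 and -0.12 over all genes. Some members had no UMI in a class, which were Oas1a and Oas2 in smooth muscle, Oas2 and Zbp1 in pericytes, and Oas2 and Ifi44 in microglia. With these set to a bound of 3 counts over the class, the medians were -3.47, -2.39 and -2.28. On that bound Ifi44, a cytoplasmic antiviral protein, was at least 36.1-fold lower in microglia, and Oas1a, which makes the oligoadenylates that switch on RNase L, at least 10.1-fold lower in smooth muscle. The remaining bounds were weaker, at 1.51-fold for Oas2 and 2.60-fold for Zbp1 in pericytes. For Oas2 they were 3.75-fold in microglia and 6.91-fold in smooth muscle.

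Levels are given in CPM, counts scaled to library size, with TMM scaling within each comparison, as lowest, median and highest of the 6 libraries. Isg15, a ubiquitin-like modifier, stood at 110, 169 and 276 CPM in endothelial cells and at 35.7, 41.5 and 86.3 CPM in smooth muscle cells (log2 difference -1.92 ± 0.17 SE). The ranges of the classes did not overlap. Rsad2, whose product viperin makes a chain-terminating nucleotide, stood at 63.7, 75.2 and 98.1 CPM against 1.15, 3.86 and 5.05 CPM in smooth muscle. Sp100, a nuclear body protein, showed the steepest step to smooth muscle among members with a UMI there, from 121, 151 and 172 CPM to 0, 1.00 and 5.05 CPM (-7.24 ± 0.27). Gbp3 and Trim30a reached at most 5.44 CPM in smooth muscle and pericytes. In microglia Trim30a, a TRIM-family protein, stood at 51.7, 78.2 and 119 CPM against 84.4, 86.9 and 102 CPM in endothelial cells and did not pass the test (-0.05 ± 0.14, adjusted p = 0.789 by edgeR).

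Ifi27, a small hydrophobic protein of mitochondria, was the member most evenly spread over the vessel wall. It stood at 173, 206 and 281 CPM in endothelial cells and at 95.9, 167 and 230 CPM in smooth muscle, with overlapping ranges (-0.30 ± 0.11, adjusted p = 0.0154 by edgeR). Its median level was 65.6% of the endothelial level in smooth muscle, 71.1% in pericytes and 54.2% in microglia. The summed endothelial markers stood at 0.599% to 1.47%, 2.01% to 5.55% and 1.10% to 2.62% of their endothelial level. Barcodes with many of these same markers had been removed before, so these values can understate the endothelial RNA carried. Over the 32 members, 20 in smooth muscle, 22 in pericytes and 27 in microglia had a median level above the top of that range. The share over all genes was not counted, and own expression and carried RNA were not told apart. Ifi27l2a, the neighbour of Ifi27 on chromosome 12, was at 0 in smooth muscle in the median library and at 24.7, 38.6 and 67.7 CPM in endothelial cells.

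The member that was higher in microglia was Lgals3bp, a secreted glycoprotein that binds galectins. It was at 60.8, 84.7 and 123 CPM in microglia and at 57.5, 60.2 and 85.3 CPM in endothelial cells, higher in microglia in 6 of 6 libraries (0.40 ± 0.14, adjusted p = 0.00907 by edgeR). Dhx58, a regulator of RNA sensing, did not pass (-0.02 ± 0.40). Parp14, an ADP-ribosyltransferase, was lower by a small step, at 52.9, 67.8 and 98.2 CPM against 93.8, 101 and 121 CPM. Microglia of iECKO library 2 numbered only 35, and a single cell there held 72 of their 161 member UMIs. All 5 Rsad2, 7 Irf7 and 6 Oasl2 UMIs of that library's microglia lay in this cell, and they gave the highest microglial values of Rsad2 (37.8 CPM), Irf7 (52.9 CPM) and Oasl2 (45.3 CPM). Of the genes of interferon sensing and its adaptors, 10 of 11 tested were higher in microglia and 1 was lower, beside 26.9% and 35.4% of all genes. Among receptors and signal carriers 9 of 18 were higher and 6 lower, and among the other interferon-induced genes 7 of 58 were higher and 37 lower. In smooth muscle 49 of 57 genes of the last list were lower, beside 34.7% of all genes, and in pericytes 45 of 57, beside 25.7%. Differences between the lists were not tested.

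**Figure D1:**
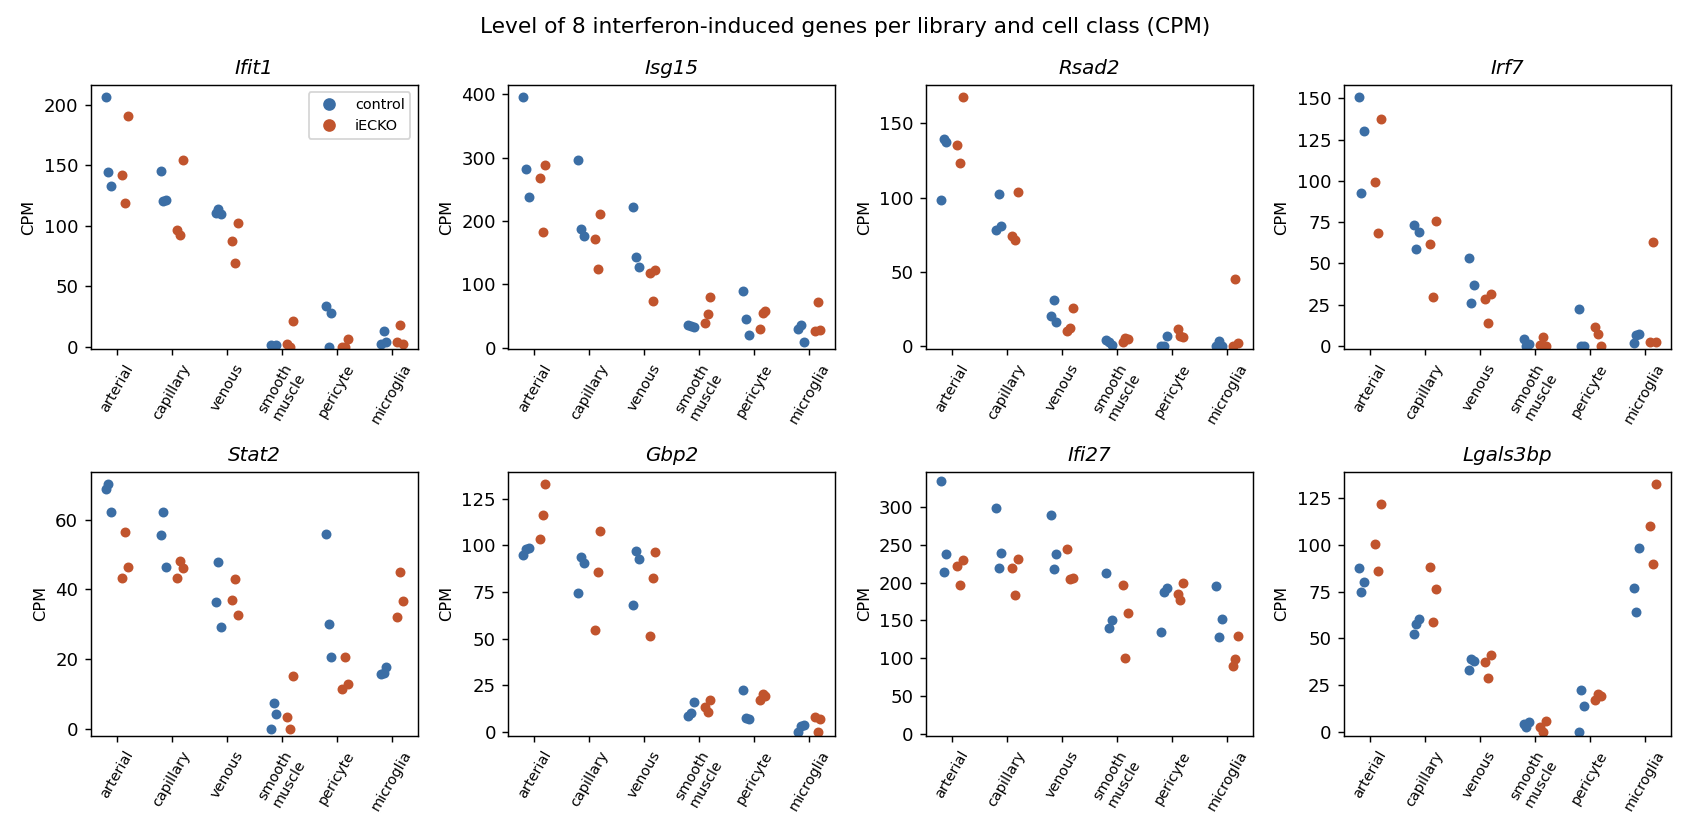
Level (CPM, linear axis from 0) of 8 interferon-induced genes in arterial, capillary, venous, smooth muscle, pericyte and microglial sums. Each point is 1 library, blue for control and orange for iECKO, and CPM are TMM-scaled within each class separately. Isg15, Rsad2 and Irf7 step down from arterial to venous cells and have lower medians in smooth muscle, pericytes and microglia than in each of these zones, while Ifi27 stays high in every class and Lgals3bp is high in microglia.

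Relative to capillary cells, most members were higher in arterial cells and most were lower in venous cells, and 16 of 32 did both. The share of all genes that did both was not counted. Of 32 members, 22 were higher in arterial than in capillary cells and 2 were lower by edgeR's quasi-likelihood test with the library as a block, where 21.0% of all genes were higher and 19.5% lower. In venous cells 20 were lower than in capillary cells and 3 were higher, against 21.7% and 23.7% of all genes. Arterial against venous cells gave 25 higher and 1 lower, against 19.8% and 20.8%. The medians over the members were 0.33, -0.26 and 0.58 for arterial minus capillary, venous minus capillary and arterial minus venous, with medians near 0 over all genes. The first pair of comparisons shares the capillary sums. Arterial and venous cells were deeper, with medians of 5108 to 7414 and 4625 to 13606 UMIs per library against 3432 to 5436 in capillary cells, and shares of cells at equal depth are given with the per-cell values. The summed smooth muscle markers were 79.5 to 174 CPM in arterial and 25.1 to 53.3 CPM in capillary cells, and their part in the differences was not tested. When the members and the other pathway lists were both kept in the clustering, 15 instead of 23 members differed between venous and capillary cells, and their median was -0.06 instead of -0.26. With that clustering Ifit1, Ifit3b, Usp18, Ifih1, Zbp1, Gbp3, Oasl2, Oas1a, Irf9, Rtp4 and Parp14 no longer passed in venous cells, nor Samhd1, Sp100 and Rtp4 in arterial cells. Ifi27 then passed as higher in venous cells, as did Usp18 and Stat2 in arterial cells.

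Fenestrated cells, the endothelium of regions without a blood-brain barrier, were not tested against the other zones. As a median percentage of the capillary level, 28 of 32 members were below 100% in them and 19 were below their venous value. These counts were not made over all genes, so they cannot be read as a result particular to the members. Ifit1 was at 32.3% in fenestrated and 82.0% in venous cells, Isg15 at 49.5% and 70.1%, and Gbp3 at 31.2% and 67.6%. Rsad2 went the other way, at 194% in fenestrated, 21.6% in venous and 161% in arterial cells.

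Among the transcription factors, Irf7 followed the gradient most steeply. It stood at 68.2, 114 and 150 CPM in arterial, 29.3, 65.6 and 75.7 CPM in capillary and 13.6, 30.05 and 53.6 CPM in venous cells. The arterial step was 0.86 ± 0.06 and the venous step -0.97 ± 0.09, each in 6 of 6 libraries. Stat2 and Irf9, its partners upstream, did not pass the test in arterial cells (0.17 ± 0.07 and 0.09 ± 0.05) and were lower in venous cells (-0.40 ± 0.08 and -0.30 ± 0.08).

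The largest venous differences, apart from the low Oas2, belonged to a few antiviral effectors. Rsad2 was at 10.3, 18.6 and 31.3 CPM in venous and at 70.0, 79.4 and 103 CPM in capillary cells (-2.14 ± 0.12, adjusted p = 2.22e-08 by edgeR). Cmpk2, a nucleotide kinase whose gene adjoins Rsad2 on chromosome 12, was at 7.83, 14.6 and 19.2 CPM against 28.1, 37.4 and 48.0 CPM (-1.36 ± 0.11). The ranges of both genes were apart. Ifit2, an RNA-binding protein, was at 2.16, 6.30 and 13.4 CPM against 21.3, 23.5 and 40.9 CPM (-1.85 ± 0.26), again without overlap. Its neighbours were lower by less, with Ifit1 at -0.26 ± 0.07 and Ifit3b at -0.44 ± 0.11, and Ifit3 did not pass (-0.21 ± 0.09, adjusted p = 0.059). With members and lists kept in the clustering, Ifit1 (0.088, adjusted p = 0.253 by edgeR) and Ifit3b (0.0056, adjusted p = 0.970) were no longer lower. All 4 Ifit genes were higher in arterial than in capillary cells, by 0.33 ± 0.06 (Ifit1), 0.58 ± 0.09 (Ifit2), 0.46 ± 0.06 (Ifit3) and 0.44 ± 0.09 (Ifit3b). Rsad2 was at 98.0, 136 and 166 CPM in arterial and 71.7, 80.3 and 105 CPM in capillary cells (0.63 ± 0.07), and Cmpk2 was higher by 0.50 ± 0.06.

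Isg15 stood at 182, 273 and 392 CPM in arterial, 124, 185 and 297 CPM in capillary and 73.4, 126 and 225 CPM in venous cells. Each step was seen in 6 of 6 libraries (0.50 ± 0.05 and -0.53 ± 0.06), although the ranges overlapped because the libraries themselves differ. Usp18, the protease that removes Isg15 and restrains the receptor, did not follow in arterial cells (0.08 ± 0.07) and was lower in venous cells (-0.26 ± 0.08). The oligoadenylate synthase genes Oas2 and Oas1a had low levels and large arterial steps. Oas2 was at 7.68, 11.5 and 20.3 CPM in arterial and 2.16, 2.73 and 7.69 CPM in capillary cells (1.68 ± 0.17), and Oas1a differed by 0.90 ± 0.15. Their relative Oasl2 differed less, by 0.33 ± 0.06.

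Arterial and venous cells were not opposites for every member. Ifi27l2a was higher than in capillary cells in both, by 1.34 ± 0.16 in arterial cells (62.5, 84.3 and 117 CPM against 20.7, 33.8 and 63.4 CPM) and by 0.62 ± 0.16 in venous cells, where 5 of 6 libraries showed it. Zbp1, a sensor of Z-form nucleic acids, was also higher in both (1.48 ± 0.12 and 0.45 ± 0.16), with arterial levels of 13.8, 16.4 and 20.9 CPM that lay above all capillary levels of 4.65, 5.43 and 9.35 CPM. Samhd1, which hydrolyses deoxynucleotides, ran against the rest. It was lower in arterial cells (-0.15 ± 0.05, adjusted p = 0.035 by edgeR) and higher in venous cells (0.32 ± 0.06), at 77.5, 99.7 and 117 CPM, 83.4, 110 and 133 CPM and 109, 132 and 173 CPM from artery to vein. Sp100 was lower in both (-0.16 ± 0.05 and -0.38 ± 0.06). Ifi27 passed neither test (0.02 ± 0.05 and 0.04 ± 0.06).

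The RNA sensors split. Ifih1 was at 90.0, 93.5 and 100.4 CPM in arterial cells, above all capillary values of 61.3, 69.8 and 76.8 CPM (0.44 ± 0.05), and was lower in venous cells (-0.30 ± 0.07). Ddx58 and Dhx58 passed neither test, with arterial differences of 0.01 ± 0.06 and 0.20 ± 0.14. Among the guanylate-binding proteins, GTPases of cell-autonomous defence, Gbp3 was higher in arterial and lower in venous cells (0.33 ± 0.07 and -0.47 ± 0.06), Gbp2 was higher only by the arterial test (0.34 ± 0.11) and Gbp7 passed neither (-0.04 ± 0.05 and -0.15 ± 0.06). With members and lists kept in the clustering, Gbp7 was higher in both zones (0.23 in each, adjusted p = 0.0192 and 0.00785 by edgeR) and Gbp2 also in venous cells (0.16, adjusted p = 0.0221). Lgals3bp was at 74.5, 86.1 and 121 CPM in arterial, 52.6, 60.2 and 88.3 CPM in capillary and 28.8, 38.2 and 41.2 CPM in venous cells (0.46 ± 0.07 and -0.82 ± 0.09). Xaf1, a promoter of apoptosis, showed 0.23 ± 0.06 and -0.64 ± 0.07. The remaining members that were higher in arterial cells, Rtp4, Ifi44, Trim30a and Parp14, differed by 0.15 to 0.33. In venous cells Rtp4, Oasl2, Parp14, Oas1a and Oas2 were lower, by -0.25 ± 0.08, -0.24 ± 0.07, -0.18 ± 0.07, -0.61 ± 0.19 and -1.74 ± 0.33. Ifi35, Ifi44 and Trim30a did not pass there.

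Other genes of the pathway were counted in the same fits. Of 57 other interferon-induced genes, 27 were higher and 4 lower in arterial than in capillary cells, beside 21.0% and 19.5% of all genes. In venous cells 24 were higher and 11 lower, beside 23.7% and 21.7%. Differences between the lists were not tested. Ifitm3, a membrane protein that blocks virus entry, was higher in both zones (0.78 ± 0.05 and 1.32 ± 0.05), and its neighbour Ifitm1 differed by 1.18 ± 0.23 and 6.20 ± 0.33. The chemokine Cxcl10 was higher in venous cells (3.84 ± 0.40). Phf11d and Ifi203 were higher in arterial cells (1.55 ± 0.11 and 1.25 ± 0.21). Of the receptors and signal carriers, 2 of 17 were higher and 6 lower in arterial cells, and 5 of 18 higher and 8 lower in venous cells. In this list the signalling inhibitor Socs3 was higher in venous cells (2.97 ± 0.34) and the transcription factor Irf5 lower in arterial cells (-2.49 ± 0.19). Sensors and adaptors gave 2 higher and 2 lower of 10, and 3 and 3 of 10. No interferon gene of the list of 10 ligands had enough counts to be tested in any comparison.

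**Figure D2:**
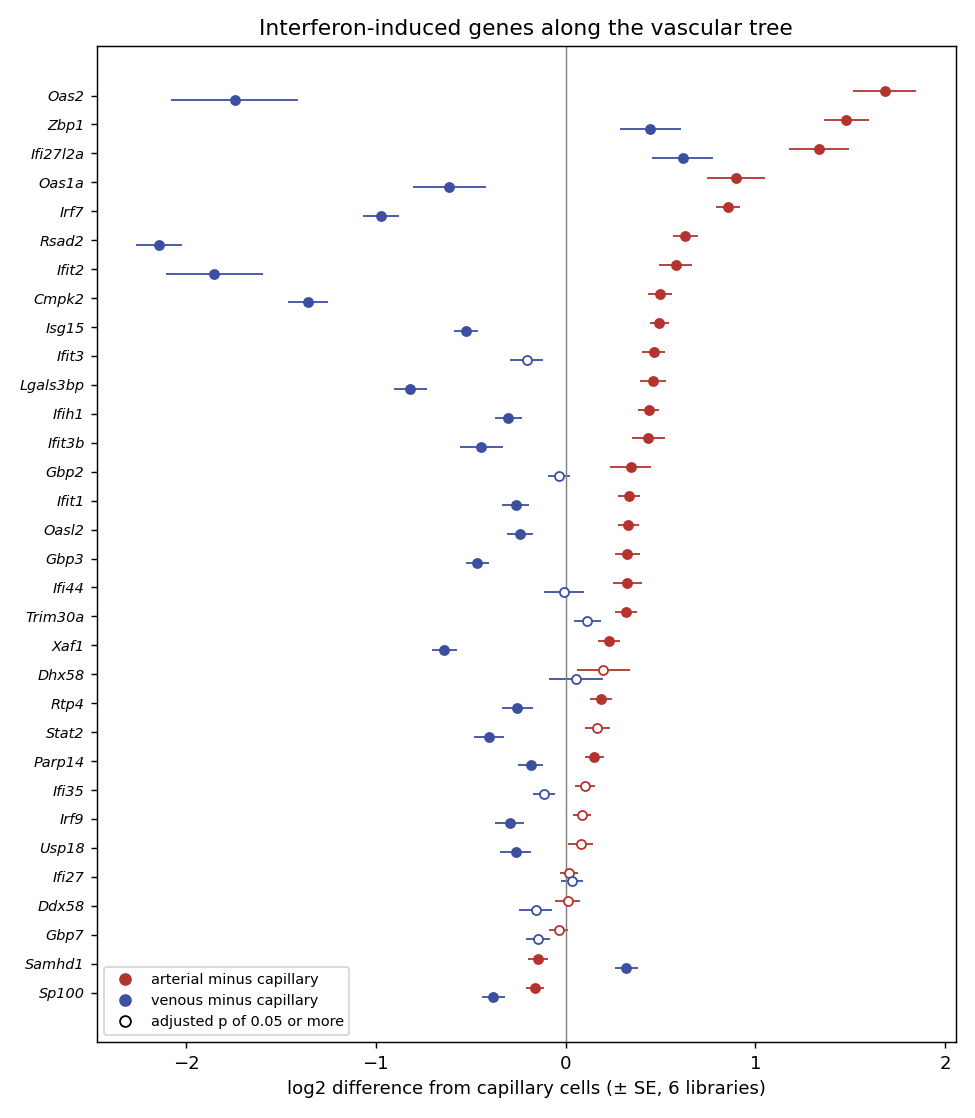
Log2 difference (± SE, 6 libraries, library as block) from capillary cells of arterial cells (red) and venous cells (blue) for each member. Open symbols have an adjusted p of 0.05 or more. Rsad2, Ifit2, Oas2 and Cmpk2 lie farthest left in venous cells, and Zbp1 and Ifi27l2a lie right of 0 in both.

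The members were also scored per cell after every endothelial cell was thinned to 2000 UMIs, which left 19420 cells. A cell held a mean of 3.93 to 6.33 member UMIs per library. A cell was called interferon-high when at least 3 of the 11 core members with a row (Ifit1, Ifit2, Ifit3, Ifit3b, Rsad2, Isg15, Usp18, Cmpk2, Oasl2, Rtp4, Zbp1) had a UMI. This cuts a continuous score, and 485 of 2874 cells of iECKO library 3, for example, lay just under it with 2 core members while 260 lay just inside with 3. By this count 2778 of 19420 endothelial cells were interferon-high. The share was 14.9% to 28.0% in arterial, 9.71% to 20.9% in capillary, 1.73% to 8.50% in venous and 1.56% to 8.59% in fenestrated cells. Arterial exceeded capillary shares by 6.96 ± 1.34 percentage points (SD, 6 libraries) and capillary exceeded venous shares by 8.77 ± 3.28 points, in 6 of 6 libraries each, at 1 depth for all cells. In smooth muscle cells 2 of 643, in pericytes 2 of 237 and in microglia 2 of 534 cells passed, counted at the same depth. B and T cells were not compared by a test. At this depth B cells held 4.54 ± 0.91 member UMIs (SD, 6 libraries), with 2 of 124 cells interferon-high, and a cluster with T and NK cell markers, led by Lyz2 and H2-Eb1, held 4.32 ± 1.53, with 6 of 147. Endothelial cells held 5.12 ± 0.94, venous cells 3.99 ± 0.76 and fenestrated cells 3.89 ± 0.49. A single arterial cell of iECKO library 1 held 196 member UMIs of its 2000, the highest of any cell.

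**Figure D3:**
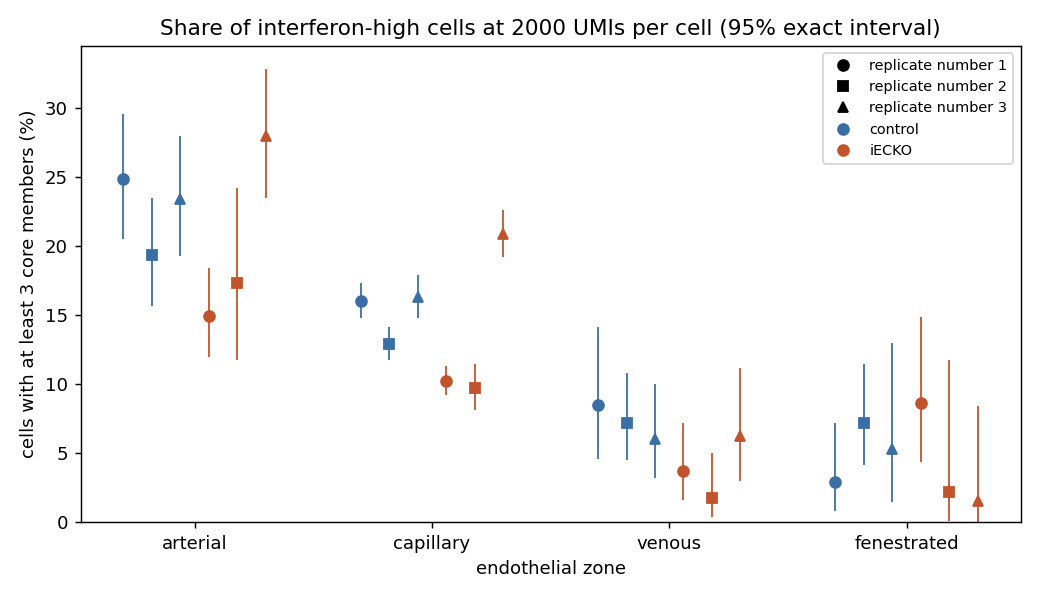
Percentage of cells (linear axis from 0) with UMIs of at least 3 core members after thinning to 2000 UMIs, by endothelial zone. Each point is 1 library, with colour for genotype, shape for replicate number and a bar for the 95% exact binomial interval, which covers counting error only. In every library the arterial share exceeds the capillary share and the capillary share exceeds the venous share.

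The members outside the core set were not used by this cut, and most were higher in the interferon-high cells as well. The ratio of their summed level in these cells to that in the other endothelial cells of the same library had a median of 2.62 for Ifi44 (range 2.36 to 3.21), 2.40 for Irf7 (1.98 to 3.03), 2.13 for Parp14 (1.93 to 2.35) and 2.08 for Stat2 (1.98 to 2.35). For Samhd1 it was 1.28 (1.22 to 1.55) and for Ifi27 1.13 (0.987 to 1.22), so Ifi27 was nearly level between the cells. Co-detection is given for Isg15 with Ifit3 only, over all endothelial zones together. The part of the zones in it and in these ratios was not tested, and pairs of genes outside the set were not counted. Isg15 was found in a median of 52.0% of the cells with an Ifit3 UMI and in 21.8% of those without, with a correlation across cells of 0.28 (median over 6 libraries; cells of a library share its depth and batch).

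Between genotypes no member passed the unpaired test. In endothelial cells 0 of 32 passed edgeR's adjusted p of 0.05, where 0.0151% of all genes did, 2 had an unadjusted p under 0.05 (Oas2 and Cmpk2), and DESeq2 also gave 0. Their median was -0.14 with 25 of 32 below 0, beside 0.00 over all genes. The same fit gave 0 of 32 in arterial cells (0.0567% of genes, 3 unadjusted), 0 of 32 in capillary cells (0.0399%, 3 unadjusted) and 0 of 31 in venous cells (0%, 5 unadjusted). The percentages are shares of genes at the adjusted threshold. The share of all genes at the unadjusted p is not given, so the unadjusted counts cannot be read as an excess. DESeq2 gave 0, 0 and 1. The medians there were -0.15, -0.14 and -0.32. In bulk sums of this kind fewer cells with a transcript and less RNA per cell cannot be told apart.

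The libraries of a genotype differed widely. Ifit1 was at 144, 117 and 119 CPM in controls 1 to 3 and at 101, 90.0 and 152 CPM in iECKO libraries 1 to 3. Isg15 was at 292, 187 and 176 CPM against 178, 120 and 211 CPM, and Rsad2 at 80.5, 102 and 81.5 CPM against 76.7, 69.0 and 107 CPM. The third iECKO library was above its control for all 3 genes and the first and second were below. Over the 32 members, 29 were lower in the iECKO library of the pair numbered 1, 30 in the pair numbered 2 and 9 in the pair numbered 3. The same counts were 25, 24 and 6 in arterial cells and 28, 29 and 10 in capillary cells. In venous cells they were 29, 29 and 21, so most members were lower there in pair 3 as well. These counts were not made over all genes. Over all endothelial cells, iECKO library 3 was the highest of the 6 for 13 members, and iECKO library 2 the lowest for 18. Without iECKO library 3 the median over the members was -0.31, and without iECKO library 2 it was -0.04, still with 0 members called.

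With the replicate number as a block, which the correlation of same-numbered libraries allows, single members passed. In endothelial cells this was Ifi27l2a, at 71.8, 40.1 and 43.5 CPM in controls and 48.2, 26.8 and 31.6 CPM in iECKO, lower in 3 of 3 pairs (-0.54 ± 0.08, adjusted p = 0.0225 by edgeR, where 0.446% of genes were lower). The ranges of the groups overlapped. In capillary cells it was again Ifi27l2a, at 63.1, 30.4 and 36.1 CPM against 37.3, 20.6 and 23.8 CPM (-0.65 ± 0.10, adjusted p = 0.00974, 1.14% of genes lower). In arterial cells Cmpk2 passed, at 64.5, 73.9 and 59.7 CPM against 38.6, 34.3 and 50.7 CPM without overlap (-0.63 ± 0.15, adjusted p = 0.0414, 0.718% of genes lower). In venous cells 2 members passed, against 0.277% of genes. Rtp4, a chaperone-like transporter of receptors, was at 91.1, 63.0 and 71.2 CPM against 53.6, 35.8 and 51.0 CPM (-0.68 ± 0.12, adjusted p = 0.0149), and Xaf1 at 109.7, 77.7 and 87.5 CPM against 61.9, 47.2 and 73.3 CPM (-0.59 ± 0.13, adjusted p = 0.0409). All controls lay above all iECKO libraries for both genes.

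Members that did not pass with or without the block ranged widely. Lgals3bp was at 55.9, 56.0 and 60.5 CPM in controls and 82.1, 56.8 and 80.3 CPM in iECKO endothelium (0.35 ± 0.16, adjusted p = 0.703). Cmpk2 was at 42.8, 44.9 and 37.9 CPM against 26.7, 27.2 and 36.5 CPM, without overlap (-0.47 ± 0.15, adjusted p = 0.445). Gbp7, Sp100 and Ifi27, the members with the most UMIs besides Isg15, gave -0.26 ± 0.23, -0.14 ± 0.16 and -0.23 ± 0.17. Among the other pathway genes 0 of 18 receptors and signal carriers, 0 of 11 sensors and adaptors and 0 of 59 other interferon-induced genes passed unpaired. With the block the adaptor Tmem173, also named Sting1, passed (1.32 ± 0.22), as did Apobec3, a cytidine deaminase (0.55 ± 0.09), and Shisa5 (0.54 ± 0.10), all higher. Bst2 was lower (-0.54 ± 0.10). The summed pericyte markers in endothelial cells moved with genotype, at 38.9 to 62.8 CPM in controls and 68.4 to 95.1 CPM in iECKO, and their part in these differences was not tested. Without the subcluster led by Apln the median over the members was -0.09.

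Per-cell values were compared at equal depth. Member UMIs per 2000 were 5.54, 4.86 and 5.83 in controls and 4.22, 3.93 and 6.33 in iECKO (5.41 ± 0.50 against 4.83 ± 1.31, SD, n = 3). The interferon-high share was 16.1%, 12.8% and 16.2% against 10.4%, 9.39% and 20.5%, a difference of -5.69, -3.44 and 4.35 points in the pairs numbered 1 to 3. The groups overlapped on both measures.

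**Figure D4:**
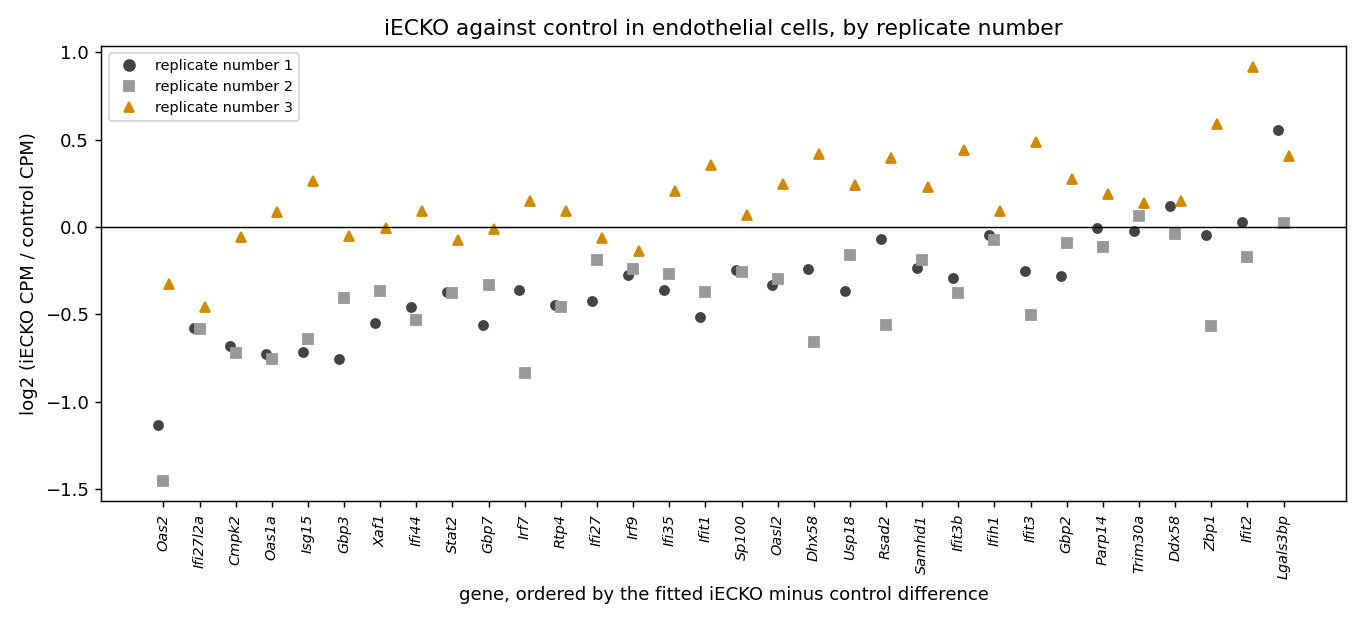
Log2 ratio of iECKO to control CPM in endothelial cells for each member and each pair of same-numbered libraries, with members ordered by the fitted difference. Pairs 1 and 2 lie mostly below 0 and pair 3 mostly above it, and Ifi27l2a is below 0 in all 3.

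Outside the endothelium few members had enough counts for the genotype comparison. In smooth muscle cells 7 members were tested, 0 passed edgeR (0.0144% of genes; unadjusted 2; DESeq2 0), and Isg15 was at 36.2, 34.9 and 33.0 CPM in controls and 39.1, 52.9 and 80.1 CPM in iECKO without overlap (0.71 ± 0.29, adjusted p = 1.00). In pericytes 2 were tested and 0 passed (0.0309%; unadjusted 0; DESeq2 0). In microglia 13 were tested and 0 passed (0.0474%; unadjusted 2; DESeq2 0). Stat2 in microglia was at 15.8, 16.1 and 17.8 CPM in controls and 32.0, 44.9 and 36.5 CPM in iECKO, also without overlap (1.08 ± 0.42, adjusted p = 0.937). Of the 5 Stat2 UMIs in microglia of iECKO library 2, 3 lay in the single cell described above. The share of all genes without overlap between the genotypes was not counted, here or in endothelial cells. The test of whether the genotype difference itself differs between arterial and capillary cells called 0 of 32 members (0.343% of genes; unadjusted 4). Between venous and capillary cells it called 0 (1.12%; unadjusted 9), and between microglia and endothelial cells 0 (0.311%; unadjusted 4). Here too the percentages are shares at the adjusted threshold and give no background for the unadjusted counts.

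Within iECKO libraries, endothelial cells without Cldn5 transcripts were compared with those that kept them. Among cells of at least 2000 UMIs, 225 to 723 per library had no Cldn5 UMI and 1296 to 3072 had at least 2. In cells without Cldn5, 13 of 32 members were higher and 1, Ifi27, was lower by edgeR with the library as a block, against 6.04% and 5.79% of all genes, with a median of 0.31 and 0.00 over all genes. DESeq2 called 6, leaving out iECKO library 1 left 8 and leaving out iECKO library 3 gave 21. In arterial cells alone 3 members passed. For these and the later alternative settings the share of all genes called is not given. The same selection in controls picks other cells, since 87.3% to 93.4% of control cells without Cldn5 were fenestrated. There 3 members were higher and 17 lower, against 14.4% and 13.2% of genes, with a median of -0.60. The difference of the contrasts called 18 of 32 members, all higher in iECKO, against 9.88% of genes.

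Capillary cells gave the comparison its largest matched set. Without thinning, 20 members were higher and 1 was lower in capillary iECKO cells without Cldn5, against 3.51% and 4.06% of genes, with a median of 0.39. DESeq2 called 10 members, 11 members passed without the subcluster led by Apln, 12 in thinned cells and 12 without iECKO library 1. Cells without Cldn5 were shallower, at median depths of 3271.5 to 4381.5 UMIs against 4804 to 5976. The comparison was therefore also made on capillary cells thinned to 2000 UMIs, with 0 or 1 against at least 5 Cldn5 UMIs, in both genotypes. This set cells of low Cldn5 (394 to 944 in iECKO, 32 to 141 in controls) against cells of high Cldn5 (507 to 1661 and 1962 to 2574). It was chosen after the zones of these cells had been seen.

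In iECKO capillaries 14 of 28 members tested were higher in the cells of low Cldn5 and 1 was lower, against 4.72% and 7.09% of genes. The median was 0.30, beside 0.01 over all genes. Rsad2 was at 127, 112 and 161 CPM in low and 54.8, 53.7 and 84.9 CPM in high cells of iECKO libraries 1 to 3, with no overlap (1.06 ± 0.10, adjusted p = 1.65e-20 by edgeR). Ifit2 was at 44.9, 32.3 and 54.5 CPM against 18.4, 24.7 and 36.5 CPM (0.83 ± 0.16), and Gbp2 at 67.9, 105 and 156 CPM against 42.9, 70.8 and 92.8 CPM (0.69 ± 0.11). Both were higher in 3 of 3 libraries. Cmpk2 passed at 0.71 ± 0.17 but was lower in the second library (23.9 against 30.1 CPM). Ifit1, Ifit3, Ifit3b, Irf7, Oasl2, Gbp3, Ifi44, Parp14, Lgals3bp and Sp100 were higher by 0.25 to 0.55. Isg15 did not pass (0.12 ± 0.08). Ifi27 was lower, at 164, 177 and 180 CPM against 217, 190 and 249.3 CPM (-0.37 ± 0.08). DESeq2 called 2 of the members, 7 or 9 passed without iECKO library 1 or 3, and 11 without the subcluster led by Apln. With 3 libraries the edgeR fit leans on spread borrowed across genes. Its small p-values are therefore no measure of how alike these libraries were for a gene.

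In control capillaries 1 of 31 members was higher in the cells of low Cldn5 and 5 were lower, against 5.62% and 11.3% of genes, with a median of 0.01. The higher member was Ifih1 (0.74 ± 0.23). The lower members were Ifi27l2a (-1.75 ± 0.46), Ifi27 (-1.44 ± 0.21), Ifi35 (-0.94 ± 0.27), Ifit1 (-0.85 ± 0.23) and Isg15 (-0.74 ± 0.19). Ifi27 was at 133, 77.7 and 88.7 CPM in low and 324, 249.6 and 233 CPM in high cells, without overlap. Rsad2 did not pass (51.7, 121 and 63.3 CPM against 93.3, 108 and 94.8 CPM, -0.31 ± 0.24). The control values are coarse, since only 32 cells of control library 3 were low. DESeq2 called 2 members, 2 passed in cells not thinned and 3 without control library 1.

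The difference between the genotypes' contrasts called 7 of 30 members, all higher in iECKO, against 6.22% of genes, and 0 lower, against 1.96%. These were Ifi27l2a (1.93 ± 0.49), Rsad2 (1.35 ± 0.24), Ifit1 (1.23 ± 0.24), Ifi27 (1.04 ± 0.22), Ifi35 (0.96 ± 0.28), Gbp2 (0.87 ± 0.26) and Isg15 (0.84 ± 0.19). For Rsad2 and Gbp2 the iECKO contrast was positive and passed and the control contrast did not pass. For Ifit1 both passed, with opposite signs. For Ifi27, Ifi27l2a, Ifi35 and Isg15 the control contrast was negative and passed, while of their iECKO contrasts only that of Ifi27 passed, and it was negative. DESeq2 called 4 and leaving out control library 1 left 3. In the iECKO groups summed microglial markers stood at 27.9 to 92.7 CPM in low and 43.4 to 76.5 CPM in high cells, and pericyte markers at 62.7 to 109 CPM and 53.3 to 85.8 CPM. Zone markers moved with Cldn5 in both genotypes. In iECKO the arterial list stood at 432 to 577 CPM in low and 248.5 to 342 CPM in high cells, and the venous list at 1305 to 1789 CPM and 2346 to 3150 CPM. In controls the arterial list stood at 550 to 859 CPM in low and 401 to 415 CPM in high cells, and the venous list at 594 to 1246 CPM and 1605 to 3309 CPM. The part of zone and of pericyte RNA in these differences was not tested. Of the other interferon-induced genes, 10 of 52 were higher and 0 lower in iECKO cells of low Cldn5, led by Mndal (0.92 ± 0.23), Ifi203 (0.70 ± 0.23), Apobec3 (0.66 ± 0.12) and Gbp5 (0.62 ± 0.11). Of 9 sensors and adaptors 0 passed.

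**Figure D5:**
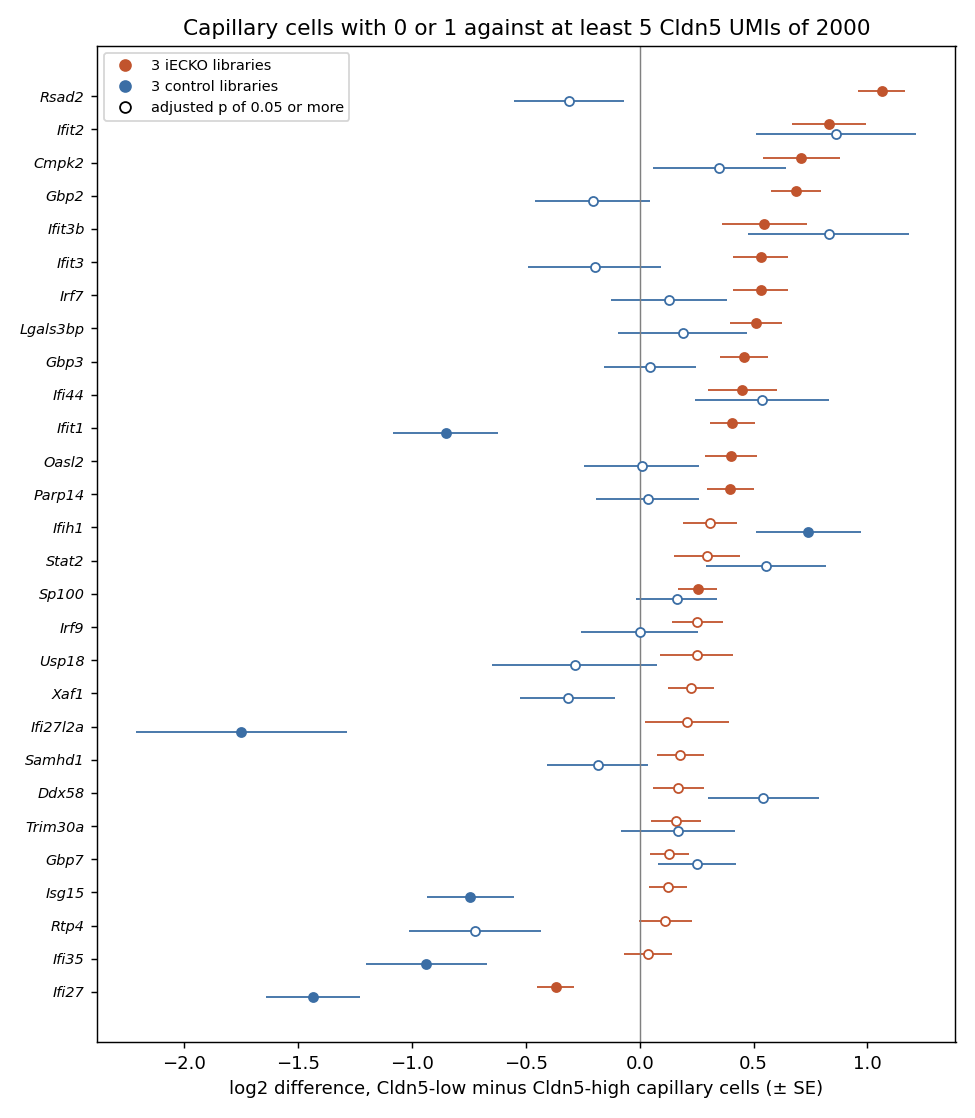
Log2 difference (± SE) between capillary cells with 0 or 1 and with at least 5 Cldn5 UMIs of 2000, for each member, in the 3 iECKO libraries (orange) and the 3 control libraries (blue). Open symbols have an adjusted p of 0.05 or more. Rsad2, Gbp2 and Ifit1 are right of 0 in iECKO and not in controls, and Ifi27 is left of 0 in both.

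The replicate number was also tested for itself in endothelial cells, with the genotype in the model. It called 4 of 32 members by edgeR, against 13.2% of all genes, so the members were called about as often as genes at large. The 4 were Ifi27l2a (adjusted p = 0.00736), Oas1a (0.0232), Ifi35 (0.0412) and Gbp7 (0.0423). At an unadjusted p under 0.05 there were 12, and the share of all genes at that cut is not given. Without filtering 9 were called, with DESeq2 10, and without control library 1 or 3 there were 7 or 15. Shares over all genes are not given for these settings. Ifi35, an interferon-inducible nuclear and cytoplasmic protein, was at 132, 79.9 and 84.1 CPM in controls and 103, 66.4 and 97.2 CPM in iECKO, lowest in both genotypes for number 2. Gbp7 was at 176, 225 and 224 CPM and at 119, 178 and 223 CPM, lowest in both for number 1. The libraries numbered 2 also carried 15.9% and 18.6% of their endothelial UMIs on Gm42418, a locus that overlaps ribosomal RNA, against 2.72% to 7.85% in the others. Xist, the RNA of the inactive X chromosome, was at 807 and 901 CPM in the libraries numbered 2 and at 0.0428 to 0.329 CPM in the others. The labels do not give the sex of the mice or what the numbers stand for.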

How the data were processed

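The authors deposited UMI count matrices of 6 libraries. Per the file headers, the software was Cell Ranger 6.1.1. The submitters' processing notes name the mm10 genome and Seurat, and no step is recorded further. Barcodes with at least 1000 UMIs, 500 genes and at most 15% mitochondrial counts were kept (27616 of 30586), and 1243 likely doublets with the highest scores, 0.8% per 1000 barcodes, were removed, because the doublet caller's own threshold marked only 8. Cells were clustered with scanpy 1.11.5 and leidenalg 0.10.2 (2000 variable genes, 20 neighbours) without the members, the pathway lists and Cldn5, and named by at least 3 markers found in at least 25% of their cells. Among the main clusters, any whose leading genes went against its name was not used in a test. No such rule was applied to the endothelial subclusters. Barcodes with a UMI of at least 3 and at least 50% of the markers of an unrelated class were removed.

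Counts were summed per library and class (at least 20 cells) and tested with edgeR 4.0.16 (quasi-likelihood, TMM, robust, filterByExpr) in R 4.3.3, with Benjamini-Hochberg adjustment over all genes and a threshold of 0.05. DESeq2 1.42.0 was an alternative. Classes, zones and Cldn5 states were compared within libraries, with the library as a block. Same-numbered control and iECKO libraries deviated together (r = 0.427, 0.518 and 0.496 over 13231 genes), so the numbers were taken to pair them, and the unpaired fit is the main one. All other pairings were negative. Levels were centred within each genotype, which largely forces this once the same-numbered values are positive, so it adds no separate support. By the naming rule, every member is accounted for, library values go to members past the threshold or at a mean of at least 20 CPM in endothelial cells, and at most 6 other pathway genes past the threshold are named per comparison by size of change. Here library values or ranges are printed for the members the results turn on and differences for the rest. The members and lists were chosen with earlier results of these data known. Alternatives were other normalization, filters, cell cuts and each library left out; the matched capillary comparison and the fits without the subcluster led by Apln were added after seeing the data. The receptors and signal carriers are not reported here for the matched capillary comparison. Scripts were tested on simulated data. Depth per library is given with the results.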

Additional observations from a re-analysis of the deposited data

Results flagged for a closer look

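The contrast between endothelial cells without and with Cldn5 differed between iECKO and control libraries for 18 of 32 members by edgeR's interaction term. In capillary cells matched in depth the same test called 7 of 30 members. Both numbers come from a test of the difference between the groups' contrasts. Control cells without Cldn5 were mostly fenestrated, so the first comparison sets different zones against each other, and the second rests on 32 to 141 control cells per library.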

How the results depend on the processing

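With the replicate block 1, 1, 1 and 2 members were called between genotypes in endothelial, arterial, capillary and venous cells, and the block changed no other genotype call. In venous cells 1 was called without a filter on low counts and 1 by DESeq2. The arterial interaction called 2 without that filter and 1 with cells of at least 2000 UMIs and at most 5% mitochondrial counts, and the venous interaction 2 without the filter. With the members and pathway lists both kept in clustering 15 members were called between venous and capillary cells, with a median of -0.06, and signs reversed for Samhd1 (0.057) and Gbp7 (0.23) in arterial cells and for Gbp7 (0.23), Gbp2 (0.16), Usp18 (0.040), Ifit3b (0.0056) and Ifit1 (0.088) in venous cells. Of these Gbp7 in both zones and Gbp2 passed the threshold. The cause was not tested. For cells without Cldn5 in iECKO, DESeq2 called 6, cells of at least 4000 UMIs gave 9 and arterial cells only 3, and in controls DESeq2 called 12 and thinned cells 13. In iECKO capillaries DESeq2 called 10, 11 passed without the Apln-led subcluster and 12 after thinning. In the matched comparison DESeq2 called 2 in iECKO, 2 in controls and 4 for the difference, and cells not thinned gave 2 in controls. The replicate number called 9 without the filter and 10 by DESeq2. The share of all genes called is not given for these settings or for the left-out libraries. Changes in the member counts were therefore not set against changes over all genes.

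Leaving out each library in turn gave 0 to 1 and 0 to 2 members for the arterial and venous interactions and 0 to 1 for the microglial one. It gave 8 to 21 for cells without Cldn5 in iECKO, 15 to 23 in controls and 14 to 19 for their difference. It gave 12 to 17 in iECKO capillaries, and 7 to 15, 3 to 6 and 3 to 8 in the matched iECKO, control and difference tests. The replicate number gave 4 to 15. The difference in interferon-high share ran from -5.14 to 0.43 points and that in member UMIs from -1.33 to -0.13. Depth limits Oas2, Oas1a and Zbp1, and all members outside the endothelium.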
